A study of Mus musculus with 12 samples.

Results

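The red-cell miRNAs followed here were mmu-miR-451a, mmu-miR-144-3p, mmu-miR-486a-5p and mmu-miR-486a-3p, written below without the mouse prefix and taken by name from the 1881 mouse miRNAs that the array reports. All 4 were on the array. The hearts came from male C57BL6/J mice, 5 months old at the end, with 3 mice and 3 arrays in each of 4 groups. Control mice (C) received vehicle, and C+P mice received vehicle and the monoamine oxidase inhibitor pargyline at 50 mg/kg/day for 12 weeks. Diabetic mice (D) received streptozotocin, a toxin of pancreatic beta cells, at 50 mg/kg/day for 5 days, then vehicle. D+P mice received streptozotocin and then pargyline at the same doses. The study counted a mouse as diabetic at a blood glucose of at least 17 mM. Streptozotocin diabetes is a model of insulin deficiency, and pargyline was given to the whole animal, so neither treatment was limited to the heart.

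miR-451a and miR-144-3p are made from 1 primary transcript that the factor GATA1 drives in red-cell precursors, and mature red cells retain both in quantity. miR-451a is unusual in that its short hairpin is cut by the Argonaute protein AGO2 and not by Dicer. miR-486 lies within the ankyrin gene Ank1, which red-cell precursors and striated muscle both transcribe, so its 2 arms are found in blood and in heart muscle. Blood left in a piece of heart brings these miRNAs with it, and the ratio of miR-451a to miR-23a, a miRNA scarce in red cells, is commonly used as a measure of haemolysis in plasma.

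The mature sequences of the members that share the transcript are shown because the array probes were designed against them, and the RefSeq table used here (GRCm38.p6) matched 2 of the 4 members. Both are encoded on the plus strand of chromosome 11, miR-144-3p at chr11:78073047-78073066 and miR-451a at chr11:78073186-78073207, and 99 bases separate their hairpins. The seed, bases 2 to 8, is in capitals.
miR-451a: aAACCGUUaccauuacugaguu
miR-144-3p: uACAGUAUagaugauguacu
The seeds differ, so the miRNAs of this pair share a transcript but not a target-recognition sequence. In the hairpins, the mature miRNA is in capitals, and miR-451a runs from the stem across the loop while miR-144-3p lies in 1 arm.
Mir144 (chr11:78073005-78073070): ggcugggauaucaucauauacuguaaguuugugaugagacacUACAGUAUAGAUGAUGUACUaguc
Mir451a (chr11:78073170-78073241): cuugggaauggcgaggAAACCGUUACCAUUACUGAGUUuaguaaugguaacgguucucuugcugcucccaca

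Values were 1-colour signals of the scanner software, 1 per miRNA and array. The arrays detected 144 to 253 miRNAs each, and the sum of all signals on an array ran from 27107 to 89040.2. The 3 C arrays were the dimmest of the 12, and D+P 1, at 39661, came next. The arrays of C and D lay on one slide and those of C+P and D+P on another, so pargyline and slide cannot be told apart. Within a slide, non-diabetic and diabetic hearts also lay in different rows of arrays, so diabetes and row cannot be told apart either. The labels name heart muscle as the tissue, while one of their protocol fields speaks of macrophages. Of 6 heart muscle miRNAs, 5 were detected on all 12 arrays (miR-1a-3p, miR-133a-3p, miR-133b-3p, miR-208a-3p and miR-499-5p), and the sixth, miR-208b-3p, on none. The liver miRNA miR-122-5p was detected on none.

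miR-451a was detected on every array and its scanner signal spanned 6.06-fold. The signal was 371.6, 365.4 and 360.1 in C, 716.6, 623.5 and 1280.8 in C+P, 782.7, 771.1 and 584.6 in D, and 211.2, 561.9 and 691.7 in D+P. The C arrays lay close together and below every C+P and D array, and D+P 1 lay below all others. The C arrays were also the dimmest of the study, and the share of all miRNAs with such a separation was not computed. The scanner software put the error of these signals at 7.11 to 7.31 percent, far below that spread.

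miR-144-3p, from the same transcript, spanned 2.65-fold. Its signal was 50.5, 65.4 and 56.0 in C, 75.3, 62.0 and 134.1 in C+P, 63.3, 68.5 and 55.2 in D, and 57.4, 104.8 and 89.4 in D+P. The D arrays overlapped the C arrays, unlike those of miR-451a, and D+P 1 fell among the C values. The other arm of the miR-144 hairpin, miR-144-5p, was detected on none of the 12 arrays.

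miR-486a-5p spanned 1.68-fold, which was rank 4 of 128 from the narrowest by the SD of the log2 signal. Its signal was 76.7, 77.6 and 83.2 in C, 86.5, 80.2 and 110.3 in C+P, 119.4, 95.7 and 120.4 in D, and 97.1, 129.2 and 118.5 in D+P. All D and D+P arrays lay above all C arrays on this unscaled signal. The C arrays were also the dimmest, and the share of the 128 miRNAs with such a separation was not computed. Without scaling, D against C was 0.49 (log2) for miR-486a-5p, against a median of 0.77 over the 128.

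miR-486a-3p, the other arm of the same hairpin, was dim and was detected on 8 of 12 arrays. It was not detected on any C array or on D+P 1. Its signal was 4.14, 5.64 and 13.1 in C+P, 11.1, 6.05 and 4.55 in D, and 4.16 and 8.39 on the remaining D+P arrays, with a scanner error of 12.8 to 26.5 percent. The 4 arrays without detection were the 4 dimmest arrays of the study by summed signal, and the 8 arrays with detection were the 8 brightest.

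**Figure D1:**
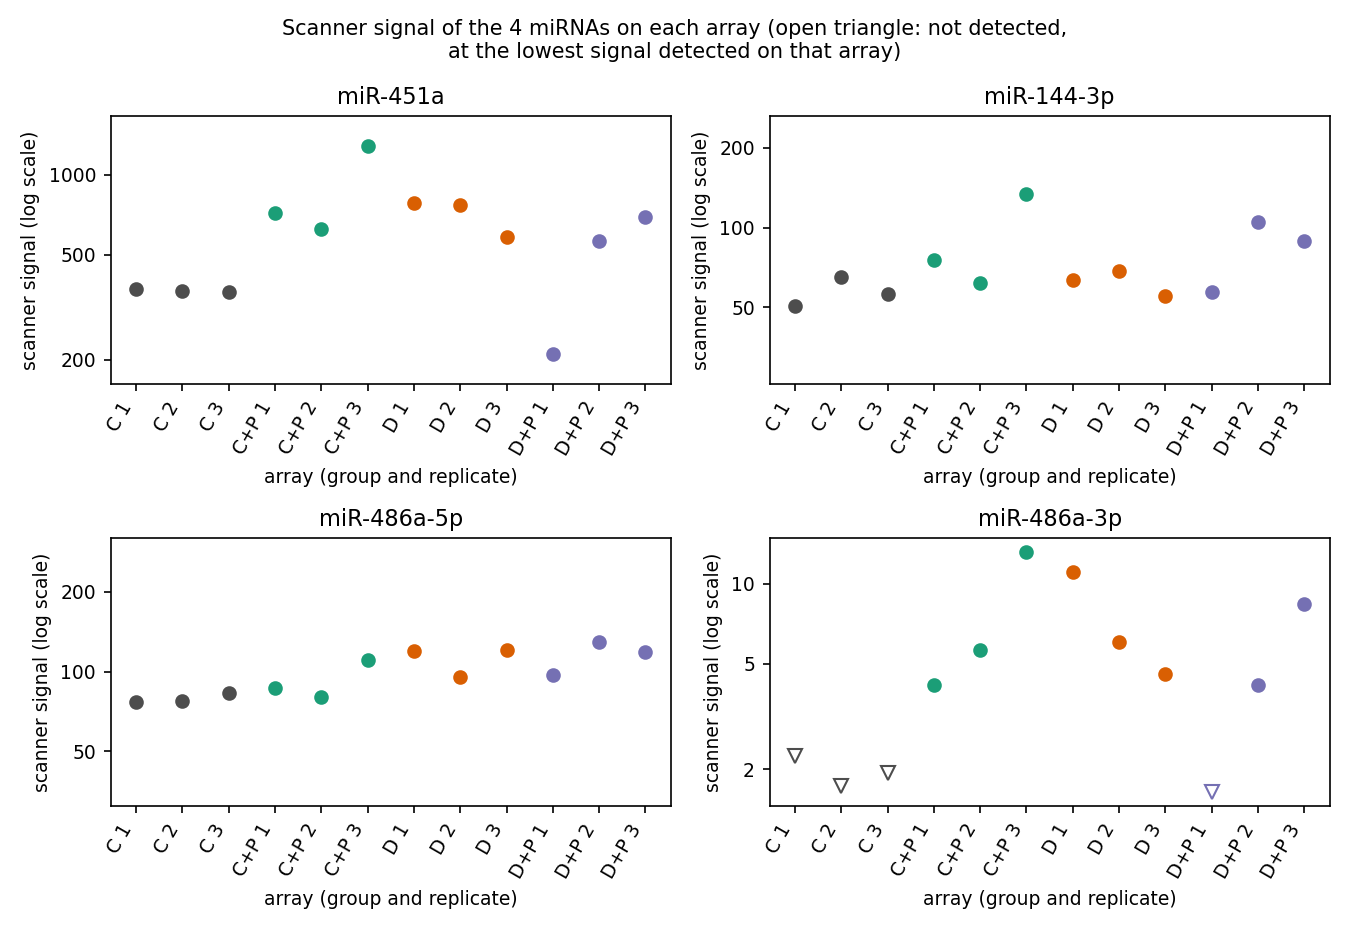
Scanner signal (log scale) of each of the 4 miRNAs on each array, with groups in colour and open triangles at the lowest signal detected on an array where the miRNA itself was not detected. miR-451a was lowest on D+P 1 at 211.2 and highest on C+P 3 at 1280.8, and miR-486a-3p was not detected on the 3 C arrays and D+P 1.

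The members followed the brightness of the whole array to different degrees. Over the 12 arrays, the slope of log2 signal on log2 summed signal was 1.20 for miR-451a, 0.56 for miR-144-3p and 0.30 for miR-486a-5p, against a median of 1.01 over the 128 miRNAs detected on every array. miR-486a-5p had rank 15 of 128 from the lowest slope, so its signal changed little between dim and bright arrays. Scaling by cyclic loess moved the D against C difference from 0.95 to -0.13 for miR-451a, from 0.12 to -0.57 for miR-144-3p and from 0.49 to -0.21 for miR-486a-5p. Without any scaling, the median difference of the 128 miRNAs to C was 0.77 (log2) in D and 1.15 in C+P, and the differences of these members are given below relative to scaled arrays.

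**Figure D2:**
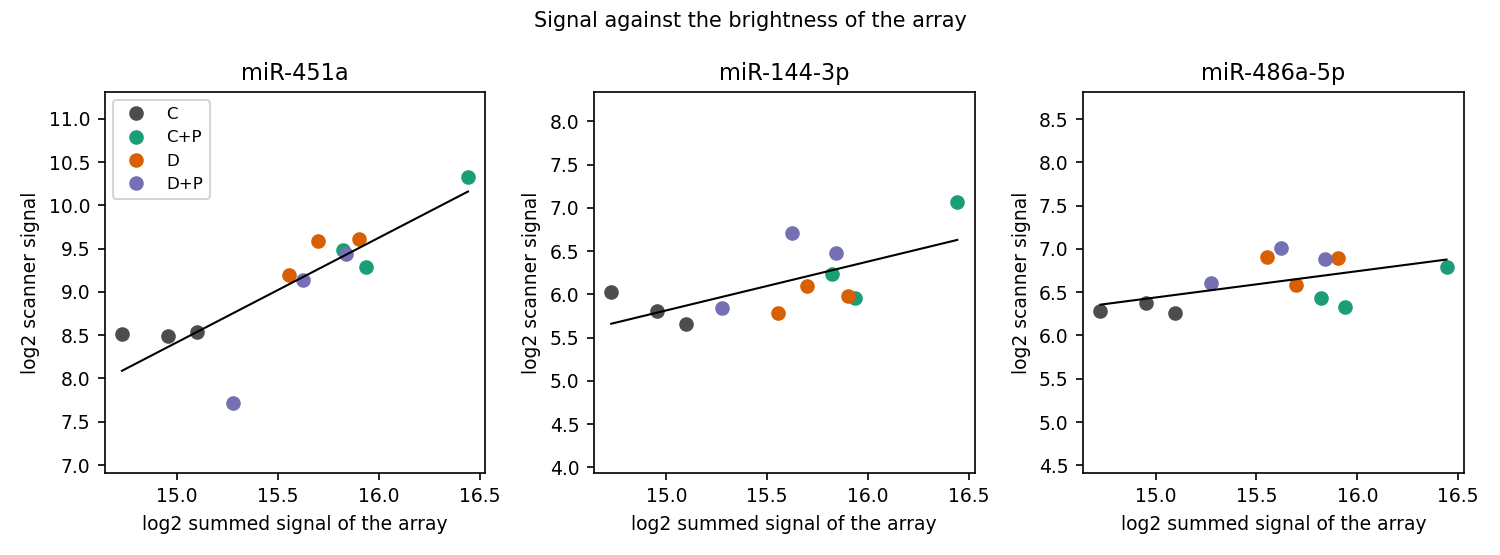
Log2 scanner signal of the 3 miRNAs detected on all arrays (vertical axis, the same span in each panel) against log2 of the summed signal of the array, with the least-squares line over 12 arrays. The line is steep for miR-451a (slope 1.20), and flatter for miR-144-3p (0.56) and miR-486a-5p (0.30).

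Group differences were fitted by limma on log2 signals after cyclic loess normalization, over the 128 miRNAs detected on all 12 arrays, with Benjamini-Hochberg adjustment over all 128 and a threshold of 0.05. The members miR-451a, miR-144-3p and miR-486a-5p, were in this fit. The 3 arrays of a group came from different mice. Since whole tissue was measured, fewer red cells and less of a miRNA per cell cannot be told apart.

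miR-451a did not pass the threshold in any comparison. Its normalized log2 signal was 9.27 ± 0.17 in C, 9.11 ± 0.19 in C+P, 9.14 ± 0.08 in D and 8.90 ± 0.25 in D+P (mean ± SD, n = 3). The 4 groups lay within 0.37 log2 units of each other, and D+P 1, at 8.61, was the lowest of the 12 arrays. Diabetic hearts differed from C hearts by -0.13 (95% interval -0.48 to 0.22, limma adjusted p = 0.50), where 50 percent of the 128 miRNAs passed the threshold. C+P hearts differed from C by -0.17 (-0.52 to 0.18, adjusted p = 0.39), where 36.7 percent passed. D+P hearts differed from D by -0.24 (-0.59 to 0.10, adjusted p = 0.18), where 53.9 percent passed, and without D+P 1 that difference was -0.09. D+P against C+P gave -0.21 (-0.55 to 0.14, adjusted p = 0.32), where 13.3 percent passed. The largest difference was D+P against C at -0.37 (-0.72 to -0.03), with an unadjusted p = 0.038 and a limma adjusted p = 0.27, in a comparison where 1.56 percent of the miRNAs passed. These intervals still allow changes of up to about 0.7 log2 units downward in that last comparison, so equal amounts in the groups were not shown. With 75th percentile scaling the sign of the D against C and C+P against C differences turned, to 0.11 and 0.09.

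After scaling, miR-144-3p was lower in diabetic than in control hearts (without scaling the difference was 0.12, adjusted p = 0.77) and higher in treated than in untreated diabetic hearts. Its normalized log2 signals were 6.15, 6.73 and 6.31 in C, 6.10, 5.61 and 6.01 in C+P, 5.67, 5.95 and 5.86 in D, and 6.31, 6.47 and 6.10 in D+P. All D values lay below all C and all D+P values, and the share of the 128 miRNAs with such a separation was not computed. The difference of D against C was -0.57 ± 0.18 (SE), a 1.48-fold lower signal (limma adjusted p = 0.024). C+P against C gave -0.49 ± 0.18, which did not pass (adjusted p = 0.054). D+P against D gave 0.47 ± 0.18, 1.38-fold higher (adjusted p = 0.048). These calls came where 50 percent (D against C) and 53.9 percent (D+P against D) of the 128 miRNAs passed. D+P against C did not pass (-0.10, interval -0.50 to 0.30, adjusted p = 0.78), nor did D+P against C+P (0.38, -0.02 to 0.78, adjusted p = 0.13). The D against C call was lost without C 2 (-0.41, adjusted p = 0.099) and without D 1 (-0.48, 0.092). Over all 128 miRNAs, 33 and 44 passed in these fits. The D+P against D call lay near the threshold and was lost in 9 of 12 fits that left out 1 array, with differences of 0.38 to 0.51 and adjusted p up to 0.15. The call was also lost with quantile normalization (0.36, adjusted p = 0.12), where 34 of all 128 miRNAs passed.

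miR-486a-5p was lower in C+P hearts than in C and D+P hearts after scaling, while without scaling it was 0.21 (log2) above C. Its normalized log2 signals were 6.75, 6.98 and 6.88 in C, 6.31, 5.99 and 5.76 in C+P, 6.57, 6.43 and 6.99 in D, and 7.09, 6.75 and 6.51 in D+P. The C+P values lay below those of every other array, and the share of the 128 miRNAs with such a separation was not computed. C+P against C was -0.85 ± 0.20 (SE), a 1.80-fold lower signal (limma adjusted p = 0.017), and D+P against C+P was 0.76 ± 0.20, 1.70-fold higher (adjusted p = 0.032). These calls came where 36.7 percent (C+P against C) and 13.3 percent (D+P against C+P) of the 128 miRNAs passed. Diabetes without pargyline gave -0.21 (interval -0.64 to 0.22, adjusted p = 0.38), and D+P against D gave 0.12 (-0.31 to 0.55, adjusted p = 0.57). D+P against C gave -0.09 (-0.52 to 0.35, adjusted p = 0.84). The C+P against C call was lost without C 2, C 3, C+P 2 or C+P 3 (-0.72 to -0.86, adjusted p = 0.067 to 0.093). In these fits 3 or 4 of all 128 miRNAs passed, against 47 in the main fit. The D+P against C+P call, which is within 1 slide, was lost without C 1, C 2, C+P 2, C+P 3, D+P 1 or D+P 2 (0.62 to 0.78, adjusted p up to 0.16). This call was also lost with quantile normalization (0.75, adjusted p = 0.052). From 1 to 10 of all 128 miRNAs passed in these fits, against 17 in the main fit.

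**Figure D3:**
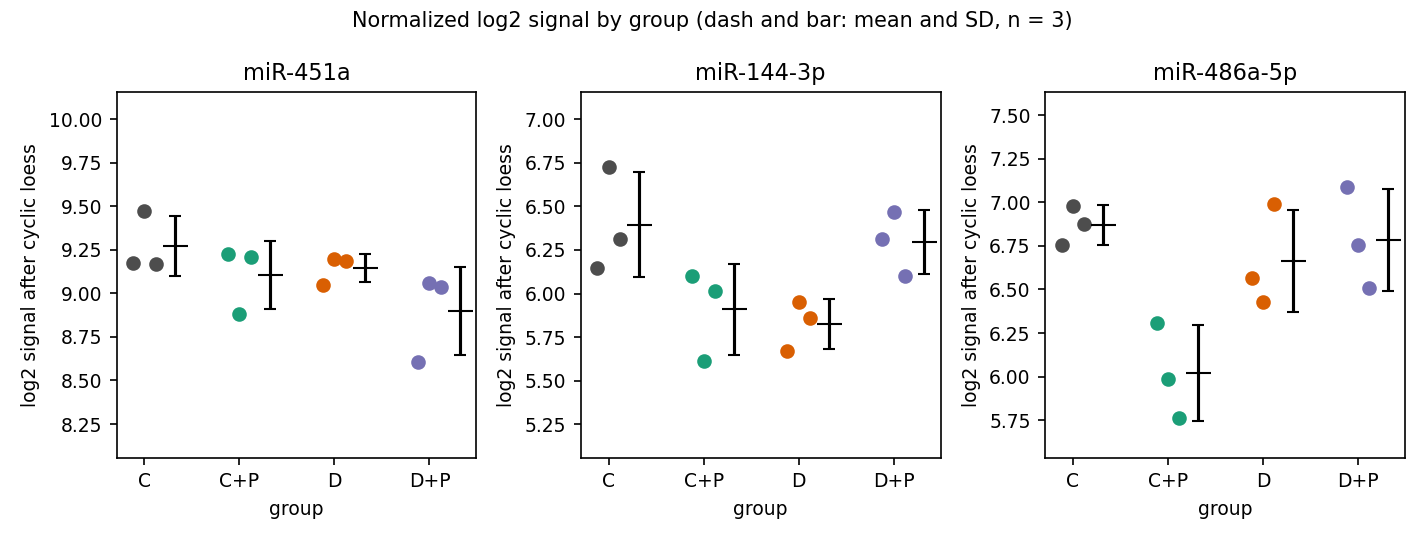
Normalized log2 signal (after cyclic loess) of the 3 miRNAs detected on all arrays, by group, with each array as a point and the mean and SD (n = 3) beside it. The groups of miR-451a overlap except D+P with C, the D points of miR-144-3p lie below those of C and D+P, and the C+P points of miR-486a-5p lie below all others.

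After scaling, the difference between treated and untreated hearts was not the same with and without diabetes for miR-144-3p and miR-486a-5p. This was so for most of the array. Pargyline and slide cannot be told apart in it. The 3 C arrays and D+P 1, the dimmest of the 12, count on the positive side of this contrast, and the part of array brightness was not tested. The interaction, D+P minus D less C+P minus C, was 0.95 ± 0.26 (SE) for miR-144-3p (limma adjusted p = 0.0078) and 0.97 ± 0.28 for miR-486a-5p (adjusted p = 0.0096). For miR-451a it was -0.08 (interval -0.57 to 0.41, adjusted p = 0.76). Of the 128 miRNAs, 70.3 percent passed the interaction test, against 2 of 3 members here. Both called interactions kept their sign and their side of the threshold in each of the 12 fits that left out 1 array (miR-144-3p 0.79 to 1.09, miR-486a-5p 0.83 to 1.12). On signals without scaling they were -0.20 and -0.17, with the median of all 128 miRNAs at -1.17. In the authors' normalized values they were 0.72 (adjusted p = 0.052) and 0.66 (adjusted p = 0.070). The F test over the 4 groups gave an adjusted p of 0.040 for miR-144-3p, 0.015 for miR-486a-5p and 0.21 for miR-451a, where 58.6 percent of the miRNAs passed. The call for miR-144-3p was lost in 8 of the 12 fits without 1 array, with adjusted p up to 0.099, and that for miR-486a-5p without C+P 3 (adjusted p = 0.073).

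miR-486a-3p was tested in a wider fit of 209 miRNAs, each detected throughout at least 1 group, in which an undetected value was set to the lowest signal detected on that array. It entered this fit through C+P and D, the groups where it was detected throughout. All C values and that of D+P 1 were set in this way. The p-values below thus rest partly on set values and cannot decide whether the groups differed. miR-486a-3p was not detected on any C array, and D hearts were 2.32-fold above the values set for C (log2 1.21 ± 0.35 SE, limma adjusted p = 0.020), where 46.9 percent of the 209 passed. That fold depends on the values set for C and is no lower bound. It was 2.18 with quantile normalization, 1.92 with 75th percentile scaling and 3.45 without scaling. The lowest signals detected on the C arrays were 1.73 to 2.24, while miR-486a-3p itself was nowhere reported as detected below 4.14. C+P against C gave 0.25 (log2, interval -0.51 to 1.01, adjusted p = 0.62), where 18.2 percent passed, and -1.38 in the authors' normalized values. D+P against D was -1.31 ± 0.35 (adjusted p = 0.019), where 47.8 percent passed, with 2 of 3 D+P arrays measured, and -0.93 (adjusted p = 0.055) without D+P 1. The interaction was -1.56 ± 0.49 (adjusted p = 0.019), where 58.9 percent passed. The D against C call was lost without C 1, C 2, C 3, D 1 or D 2 (1.06 to 1.25, adjusted p = 0.051 to 0.057), and the D+P against D call also without D 2 (-1.32, adjusted p = 0.054). In the authors' normalized values D against C was 1.48 (adjusted p = 0.081) and the interaction -1.96 (adjusted p = 0.077), and with 75th percentile scaling D+P against D was -0.54 (adjusted p = 0.21). The D against C call was also lost with 16 added before log2 (0.25, adjusted p = 0.062) and with no filter (1.01, adjusted p = 0.32). The D+P against D call was also lost without scaling (-0.81, adjusted p = 0.29), with only the groups compared (adjusted p = 0.091), with the methods' t-test (adjusted p = 0.20) and with no filter (-1.36, adjusted p = 0.14). The arms of the same hairpin thus had interactions of opposite sign, 0.97 for miR-486a-5p and -1.56 for miR-486a-3p, and the difference between them was not tested. The part that array brightness has in this was not tested. miR-486a-3p belongs to a group of miRNAs that the study formed on these same arrays, so its direction is not independent evidence.

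**Figure D4:**
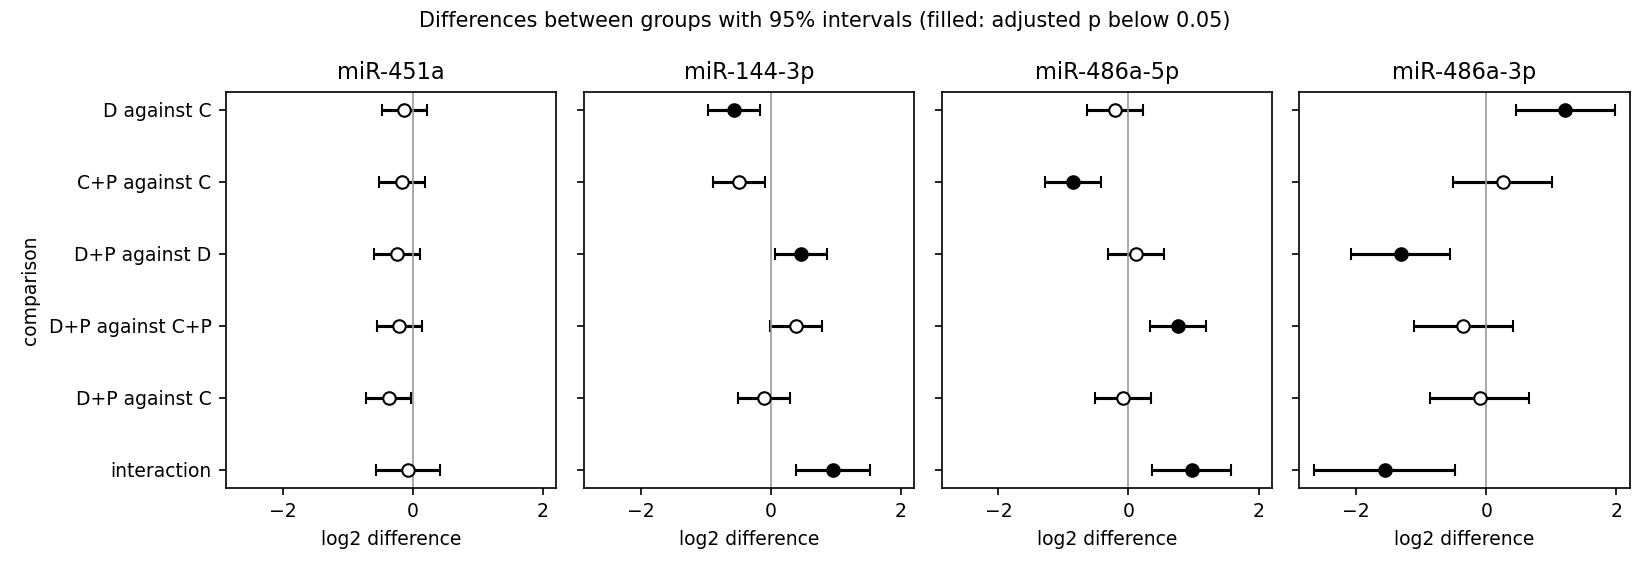
Log2 differences between groups (horizontal axis) with 95% intervals for each member and comparison, filled where the adjusted p is below 0.05. The first 3 panels come from the fit of 128 miRNAs and miR-486a-3p from that of 209. No point of miR-451a is filled, and the interaction is positive for miR-144-3p (0.95) and miR-486a-5p (0.97) and negative for miR-486a-3p (-1.56).

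Group explained less of the variation in miR-451a than in most miRNAs. The share of its normalized variance that lay between groups was 43.7 percent, rank 15 of 128 from the lowest, against 62.5 percent for miR-144-3p, 72.0 percent for miR-486a-5p and a median of 65.8 percent over the 128. Its SD within groups was 0.19, against 0.23 for miR-144-3p, 0.26 for miR-486a-5p and a median of 0.24. Of single arrays, D+P 1 lay farthest from its group mean in miR-451a (-0.29) but not in miR-144-3p (0.02), and in miR-486a-5p it lay 0.30 above its group. C 2 was above its group in all 3 (0.20, 0.33 and 0.11) and C+P 2 was below it in all 3 (-0.22, -0.30 and -0.03). D+P 1 was thus low in miR-451a alone of the 3.

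No correlation between members passed the threshold across the 12 arrays. Pearson's r of miR-451a with miR-144-3p was 0.29 (permutation p = 0.36) and Spearman's rho 0.22 (permutation p = 0.49), despite their shared transcript. For miR-451a with miR-486a-5p, r was -0.05 (permutation p = 0.89) and rho -0.15 (permutation p = 0.64). For miR-144-3p with miR-486a-5p, r was 0.54 (permutation p = 0.072) and rho 0.52 (permutation p = 0.088). The smallest adjusted p over the 6 relations computed was 0.21 for r and 0.26 for rho. Without the 2 arrays farthest from the median of the first-named miRNA, r was 0.38, 0.19 and 0.29. Within groups, on deviations from the group means, miR-451a and miR-144-3p had r = 0.64 (exact permutation p = 0.061, adjusted 0.21) and rho = 0.67 (exact permutation p = 0.071, adjusted 0.26). Without D+P 1 and C+P 2 that r was 0.73. On the same deviations, miR-451a and miR-486a-5p had r = -0.19 (exact permutation p = 0.62), and miR-144-3p and miR-486a-5p r = 0.32 (exact permutation p = 0.33). On signals without scaling, the relation of miR-451a with miR-144-3p was stronger both across arrays (r = 0.65, permutation p = 0.022) and within groups (r = 0.86, exact permutation p = 0.027). These p-values were not adjusted. The other within-group relations rose too, to 0.68 for miR-451a with miR-486a-5p and 0.72 for miR-144-3p with miR-486a-5p. Across arrays they were 0.43 and 0.51. Unscaled signals share the brightness of the array, and its part in these relations was not tested.

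Of the other 127 miRNAs in the fit, those most like miR-451a over the 12 arrays were miR-25-3p (r = 0.83), miR-133a-3p (0.81) and miR-133b-3p (0.81). miR-25-3p is abundant in red cells but made in most tissues, and the miR-133 miRNAs are made in striated muscle. Those most like miR-486a-5p were miR-378a-3p (0.89), which lies in the gene of a metabolic coactivator, miR-30d-5p (0.88) and miR-677-3p (0.88). Those most like miR-144-3p were miR-7005-5p (0.80), miR-22-3p (0.79) and miR-7082-5p (0.79). miR-144-3p ranked 30 of 127 in likeness to miR-451a, and miR-486a-5p ranked 71. These values share arrays and normalization and are given as a description.

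Ratios within an array do not depend on a scaling of the whole array, and 5 were computed from the scanner signals. Because probes differ in brightness, only the change of a ratio between arrays is read. With 3 arrays against 3, the exact two-sided permutation test cannot give a p below 0.1. Over the 25 comparisons the smallest adjusted p was 0.21, so none could pass. Groups did not overlap in 12 of the 25, and the share over other pairs of miRNAs was not computed.

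The ratio of miR-451a to the heart muscle miRNA miR-133a-3p was the steadiest of the 5. It lay between 0.243 on D+P 1 and 0.323 on C 2, a 1.33-fold range, while miR-451a alone spanned 6.06-fold. The log2 ratio was -1.83 ± 0.18 in C, -1.82 ± 0.16 in C+P, -1.85 ± 0.08 in D and -1.93 ± 0.09 in D+P (SD, n = 3), and the groups overlapped in all 5 comparisons. The low miR-451a of D+P 1 was thus matched by a low miR-133a-3p on the same array. Of the 127 possible partners of miR-451a, miR-133a-3p gave the lowest SD of the log2 ratio, 0.13 against a median of 0.47. Both had a slope of 1.20 on the summed signal of the array, against 1.68 for miR-23a-3p, 0.56 for miR-144-3p and 0.30 for miR-486a-5p. The part of array brightness in the steadiness of this ratio was not tested.

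The ratio of miR-451a to miR-23a-3p was highest in C. It was 1.91, 2.51 and 2.12 in C, 1.61, 1.22 and 1.51 in C+P, 1.35, 1.53 and 1.61 in D, and 1.27, 1.39 and 1.35 in D+P. All C arrays lay above all 9 others, and the share of the 127 partners with such a separation was not computed. The C arrays were also the dimmest, while D+P 1, the next dimmest, had 1.27. The slope on array brightness was 1.20 for miR-451a and 1.68 for miR-23a-3p, so this ratio tended to fall as arrays brightened. The part of brightness in it was not tested. The log2 difference to C was -0.54 in D, -0.59 in C+P and -0.70 in D+P, each with exact permutation p = 0.1 and adjusted p = 0.21. miR-23a-3p itself rose by 0.54 ± 0.14 (SE) in D against C (limma adjusted p = 0.011), in the fit where the difference of miR-451a was -0.13.

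The ratios among the members differed more between groups. miR-144-3p over miR-451a was 0.136, 0.179 and 0.155 in C, 0.105, 0.0995 and 0.105 in C+P, 0.0809, 0.0888 and 0.0945 in D, and 0.272, 0.187 and 0.129 in D+P. The C+P and D arrays lay below all C and D+P arrays, although both miRNAs come from 1 transcript. The log2 difference to C was -0.83 in D and -0.60 in C+P, and D+P stood 1.09 above D and 0.86 above C+P, each with exact permutation p = 0.1 and adjusted p = 0.21. The order of the groups in this ratio followed array brightness in part, with the dim C arrays and D+P 1 at high values, and the part of brightness in it was not tested.

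miR-486a-5p over miR-451a was lowest on C+P 3 at 0.0861 and highest on D+P 1 at 0.459, a 5.33-fold range. Its log2 value in C+P was lower than in C (difference -0.97) and lower than in D+P (D+P minus C+P 1.25), where groups did not overlap (exact permutation p = 0.1, adjusted p = 0.21). D also lay below C (-0.46, exact permutation p = 0.1, adjusted p = 0.21), but D 3 at -2.280 and C 1 at -2.277 nearly met. On cyclic loess values D and C overlapped, and the difference was -0.078 (exact permutation p = 0.8). miR-486a-5p over miR-133a-3p gave differences of -0.96 and 1.13 for the same groups (exact permutation p = 0.1, adjusted p = 0.21). Without D+P 1, the D+P against C difference of each of these ratios turned sign, from 0.28 to -0.13 over miR-451a and from 0.17 to -0.18 over miR-133a-3p. The slope on array brightness was 0.30 for miR-486a-5p and 1.20 for both miR-451a and miR-133a-3p, so both ratios tended to fall as arrays brightened. C+P 3 was the brightest array, and the part of brightness in these ratios was not tested.

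**Figure D5:**
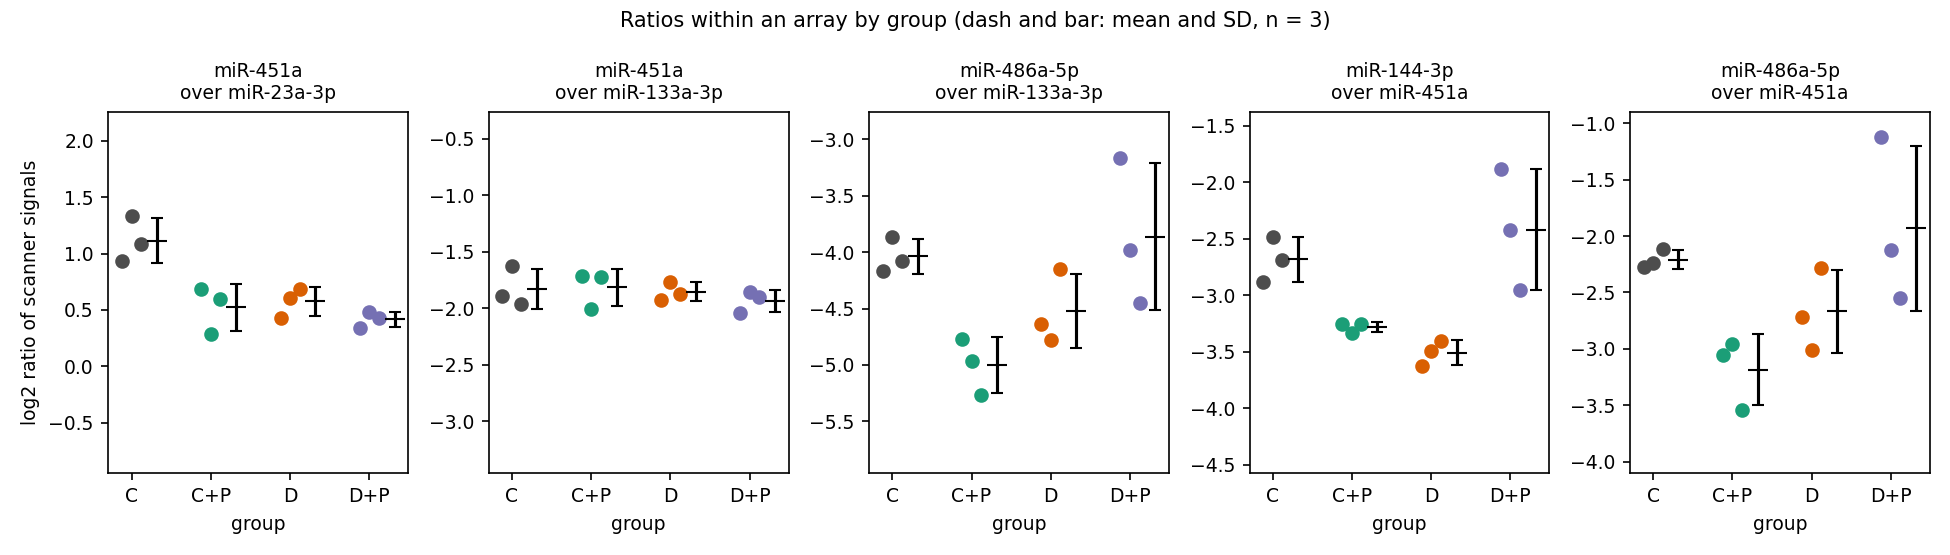
Log2 ratio of scanner signals within an array for 5 pairs of miRNAs, by group, with the same vertical span in each panel, each array as a point and the mean and SD (n = 3) beside it. The ratio of miR-451a to miR-133a-3p is nearly level over the 12 arrays (1.33-fold range), while miR-486a-5p over miR-451a spans 5.33-fold.

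Other miRNAs abundant in red cells were read from a list of 14 names, of which 11 were on the array and 4 (miR-16-5p, miR-92a-3p, miR-25-3p and miR-185-5p) were detected on all 12 arrays. These 4 are made in most tissues and are not particular to red cells. miR-486b-3p, from the opposite strand at the miR-486 locus, was detected on 7 arrays, and 6 of the list on none. In D against C, 2 of the 4 rose and none fell, with a list median of 0.33 against 0.02 for all 128 miRNAs, where 50 percent passed. miR-92a-3p, of the miR-17 to 92 cluster, was 1.39 ± 0.20 (SE) higher on the log2 scale (limma adjusted p = 8.4e-04), and miR-16-5p, a widely expressed miRNA of the miR-15 family, 0.52 ± 0.15 higher (adjusted p = 0.014). The same pair fell in D+P against D, by 0.96 and 0.48, with a list median of -0.42 against -0.09 for all, where 53.9 percent passed. In D against C and again between D+P and D, the called miRNAs of the list and miR-144-3p moved in opposite directions, while miR-451a passed in neither. In C+P against C, 1 of 4 rose, where 36.7 percent of all passed, and none passed for D+P with C+P or with C, where 13.3 and 1.56 percent of all passed. The summed signal of the list ran from 98.6 to 113.1 on C arrays, from 216.9 to 392.5 on C+P arrays, from 188.0 to 298.2 on D arrays and from 96.7 to 247.8 on D+P arrays. These sums were not scaled, and the part of array brightness in them was not tested.

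White blood cells enter tissue with blood or on their own, and 6 of their miRNAs were read (miR-223-3p, miR-142a-3p, miR-142a-5p, miR-150-5p, miR-155-5p and miR-146a-5p), and 3 of them passed detection throughout. Summed over these 6, the unscaled signal was at most 32.7 on C arrays (lowest 16.4), 65.8 on D arrays (44.5) and 67.6 on D+P arrays (14.1). It ran from 94.7 to 175.1 on C+P arrays, so that C+P stood above all other arrays. C+P 3 was the brightest array and the C arrays the dimmest, and the part of brightness in these sums was not tested. After scaling, miR-142a-3p overlapped between C+P (lowest log2 signal 4.34) and D (highest 4.39). Of the 3 tested, 2 rose in C+P against C (36.7 percent of all 128 passed), 1 rose in D against C (50 percent), and 3 fell in D+P against D (53.9 percent) and in D+P against C+P (13.3 percent). miR-451a passed in none of these comparisons, and the part of white cells in the low miR-486a-5p of C+P was not tested. Of the 5 heart muscle miRNAs tested, 1 rose and 1 fell in D against C, 1 rose in C+P against C, and 2 fell in D+P against D and in D+P against C+P. Apart from the last comparison, where 13.3 percent of all passed, these shares lay near or below those of all miRNAs (50, 36.7 and 53.9 percent).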

How the data were processed

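RNA of 12 hearts, 1 mouse per array, was labelled with Cy3 and hybridised to Agilent mouse miRNA arrays (miRBase 21). Per the file headers, Feature Extraction 10.7.3.1 gave the deposited intensity of each miRNA, its error and a detection flag; an undetected miRNA is listed at 0.1. The authors also deposited a table of 209 miRNAs and 10 control features, kept by a detection filter and normalized by cyclic loess, whose intensity values served only as an alternative. The labels and the study's methods give different amounts of input RNA.

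Here, following the study's stated filter of no undetected values, miRNAs detected on all 12 arrays (128 of 1881) were taken to log2 and normalized by cyclic loess (span 0.7, 3 iterations). limma 3.58.1 in R 4.3.3 fitted 4 group means, with Benjamini-Hochberg adjustment and a threshold of 0.05. A wider fit of 209 miRNAs held undetected values at the lowest signal detected on the array. Within-array ratios were compared by exact permutation tests, and correlations by 100000 permutations, or all 1296 within groups. The fit was tested on simulated data. No 2 arrays held identical values.

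Samples were grouped by their titles. Named miRNAs were the 4 members, fixed lists of red-cell, white-cell, heart muscle and liver miRNAs, and the 3 miRNAs most correlated with each member; miR-23a-3p was a ratio partner. The members and lists were chosen with earlier results of these data known. Alternatives were other normalizations, filters, an added constant of 16, a replicate block, other tests and leaving out each array. Precision is limited by 3 arrays per group; arrays give no read depth.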

Additional observations from a re-analysis of the deposited data

Results flagged for a closer look

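The limma interaction of diabetes and pargyline passed the threshold for 3 members. The interaction was 0.95 for miR-144-3p (adjusted p = 0.0078) and 0.97 for miR-486a-5p (adjusted p = 0.0096), where 70.3 percent of 128 miRNAs passed the same test. It was -1.56 for miR-486a-3p (adjusted p = 0.019), where 58.9 percent of 209 miRNAs passed. All C arrays and D+P 1 had no detected miR-486a-3p and held the lowest detected signal of the array instead. Its p-value thus cannot decide whether the effect of pargyline differed. None of the 3 interactions passed in the authors' normalized values. Pargyline and slide cannot be told apart, and the part of array brightness in the interactions was not tested.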

How the results depend on the processing

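With 3 arrays per group and dim C arrays, precision is limited for all results. miR-451a passed in no comparison under any alternative except without scaling (D against C 0.95, C+P against C 1.18, interaction and F test). The comparison of D+P with C had no call under any alternative. Settings that changed the number of the 3 members called from 1 (or 2 for the interaction and F test) were as follows. The number called over all miRNAs tested is in brackets. D against C: 0 with no filter (5 of 1881) and the methods' t-test (74 of 128). C+P against C: 0 with no filter (4 of 1881), and 2 with 16 added (53 of 128), only the groups compared (85) or an intensity trend (50). D+P against D: 0 with quantile normalization (34 of 128), no scaling (8), the authors' values (3) and the wider (100 of 209) or no filter (0 of 1881). It was also 0 with only the groups compared (0 of 128) and the methods' t-test (0 of 128). D+P against C+P: 0 with these settings (0 to 7 of 128, 12 of 209 and 0 of 1881). It was also 0 with 75th percentile scaling (3 of 128) and each slide normalized alone (1 of 128). Interaction: 1 without scaling (70 of 128), 0 with the authors' values (64 of 128) and with no filter (2 of 1881). F test: 1 with quantile normalization (67 of 128), no scaling (92), the authors' values (43) or the wider filter (102 of 209), 0 with no filter (2 of 1881). Leaving out 1 array gave 0 to 1 for D against C, D+P against D and D+P against C+P. It gave 0 to 2 for C+P against C and the F test, and 2 to 2 for the interaction. Over all 128 miRNAs, the same fits gave 33 to 88 calls for D against C and 3 to 79 for C+P against C. They gave 13 to 89 for D+P against D and 1 to 73 for D+P against C+P. The cause was not tested.

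With the replicate number as a block, the count was 0 for D+P against D (58 of all 128) and for D+P against C+P (8). It was 1 for the F test (67 of all 128), and other counts of members did not change. Of 18 same-numbered pairs of arrays, 4 had deviations correlated above 0.1, with r from -0.37 to 0.49 over all pairs. Differently numbered pairs were not compared, so this cannot decide whether the numbers pair the samples.

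Signs turned as follows, none in a called result unless said. Without scaling: miR-144-3p D against C 0.12 (called in the main analysis), D+P against C+P -0.073, C+P against C 0.59 and D+P against C 0.51 and interaction -0.20 (called); miR-486a-5p D against C 0.49, C+P against C 0.21 (called), D+P against C 0.53 and interaction -0.17 (called); miR-451a D+P against C 0.25; miR-486a-3p D+P against C 0.98. With 75th percentile scaling: miR-451a D against C 0.11 and C+P against C 0.088; miR-486a-3p D+P against C 0.40, and 0.047 with quantile normalization. With no filter: miR-451a D against C 0.042 and miR-486a-3p C+P against C -0.057. With the authors' values: miR-486a-3p C+P against C -1.38, miR-486a-5p D+P against D -0.13, miR-451a interaction 0.068.

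Without 1 array, miR-486a-5p D+P against D ran from -0.015 to 0.28 and D+P against C from -0.24 to 0.054; miR-486a-3p D+P against C+P from -0.79 to 0.0071 and D+P against C from -0.54 to 0.26; miR-144-3p D+P against C from -0.23 to 0.060; and the miR-451a interaction from -0.20 to 0.084.

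Of the ratios, those of miR-451a over miR-133a-3p lay near no difference and turned sign: D against C ran from -0.094 to 0.074 and C+P against C from -0.057 to 0.11 without 1 array. On cyclic loess values C+P against C was -0.068 and D+P against D 0.015, and miR-451a over miR-23a-3p in D+P against C+P was 0.021. Without 1 array, D+P against C ran from -0.18 to 0.46 for miR-486a-5p over miR-133a-3p, from -0.13 to 0.59 for miR-486a-5p over miR-451a and from -0.00521 to 0.53 for miR-144-3p over miR-451a.

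Correlations across arrays changed with the scaling: miR-451a with miR-144-3p gave -0.088 with 75th percentile scaling and 0.65 without scaling, miR-451a with miR-486a-5p 0.43 without scaling, and miR-144-3p with miR-486a-5p 0.60 with quantile normalization and 0.65 with 75th percentile scaling. Within groups, miR-451a with miR-144-3p gave 0.86 without scaling, and miR-451a with miR-486a-5p 0.0059 with 75th percentile scaling and 0.68 without scaling.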
